A study of Mus musculus with 15 samples.

Results

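Olfactory epithelium of mice 5 days after removal of both olfactory bulbs (olfactory bulbectomy, OBX) was compared with that of mice 1 day after the same operation. The comparison took the 3 arrays titled OBX day 5 and the 3 titled OBX day 1, 6 of the 15 arrays of the series, each an Affymetrix MG_U74Av2 array, a short-oligonucleotide array of mouse transcripts. All 6 arrays carried RNA from male C57Bl/6 mice of 6 weeks that had undergone bilateral bulbectomy and no other treatment named in the labels. Each array held 1 pool of 3 mice with 5 µg of total RNA from each, so 18 mice entered the comparison and p-values measure only the spread between such pools. The other 9 arrays (3 of mice without surgery, 3 of sham surgery at day 5 and 3 of OBX at day 7) gave reference levels. No sham group of day 1 was analysed here. Both operated groups carry the surgery itself, which had been done 1 day before in one group and 5 days before in the other.

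The olfactory epithelium holds olfactory sensory neurons, whose axons end in the olfactory bulb, supporting sustentacular cells, secretory glands and basal cells. Removing the bulb cuts these axons and takes away their target. The mature neurons then die in a wave, macrophages clear the remains, and basal progenitors divide and give rise to new neurons. The tissue was sampled at 1 and 5 days, and the question was which transcripts differed between these times within operated mice.

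Of 12422 probe sets that are not array controls, 7063 (56.9%) were called present by the array software on at least 3 of the 6 arrays and were tested. They stand for 5473 named genes. A level is the deposited signal, in the authors' scaled units, and a change is the difference of mean log2 signals, OBX day 5 minus OBX day 1, with its moderated standard error (SE) from limma and n = 3 arrays in each group. Adjusted p-values are Benjamini-Hochberg values over all 7063 probe sets, with a threshold of 0.05. "Rose" and "fell" are used for probe sets past that threshold. A level depends on a probe set's own sequence, so levels are not compared between genes. In whole tissue, fewer cells of a type and less RNA per cell cannot be told apart.

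Arrays of the 6 pools called 52.6% to 58.7% of probe sets present. One array, OBX day 5 replicate 1, stood apart from the others. Its correlation with the other 5 arrays over the tested probe sets was 0.911 to 0.925, where all other pairs reached 0.954 to 0.988, and on the first principal component (57.4% of the variance) it lay at 47.8 with the others between −13.8 and −4.09. Across tested probe sets, replicate SDs of log2 signal had a median of 0.28 in the day 5 group and 0.13 in the day 1 group. Scanning took place on 2 days. Replicates 1 and 2 of OBX day 1 belonged to the earlier one, and replicate 3 shared the later one with the whole day 5 group. All untreated and sham arrays were scanned on the earlier day and all OBX day 7 arrays on the later one. Counts of calls without OBX day 5 replicate 1 and within the second scan day, where 1 OBX day 1 array stands against the 3 of OBX day 5, follow below, and values from these settings are given for the main gene groups and for some single genes. The labelled tissue was checked by its markers. Omp, which marks mature sensory neurons, Gap43 of growing axons and Neurog1 of neuronal precursors were called present on all 6 arrays.

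Genes that fell from day 1 to day 5 included 5 of 26 tested genes of synapses and neuronal secretion. They also held 2 of 14 genes of mature sensory neurons and 2 of 26 of the stress response. Those that rose included 6 of 45 genes of mitosis and 5 of 15 of antigen presentation. Of all 5473 tested genes, each by its brightest probe set, 0.713% (39) fell and 0.749% (41) rose. In all, 101 of 7063 probe sets passed (1.43%), 51 higher at day 5 (0.722%) and 50 lower (0.708%), with changes of 0.67 to 2.78 upward and down to −2.94. Counted by any called probe set, they stand for 43 genes that rose and 44 that fell, and 8 probe sets had no single gene. In all 101 the 3 signals of one day lay apart from the 3 of the other, which was so for 12.7% of all tested probe sets in the upward and 11.7% in the downward direction. Lack of overlap in a called gene is thus no further support. The plot of changes against p-values shows the largest of them. At an unadjusted p under 0.05 there were 1013 probe sets, where 353 would be expected without any difference.

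**Figure D1:**
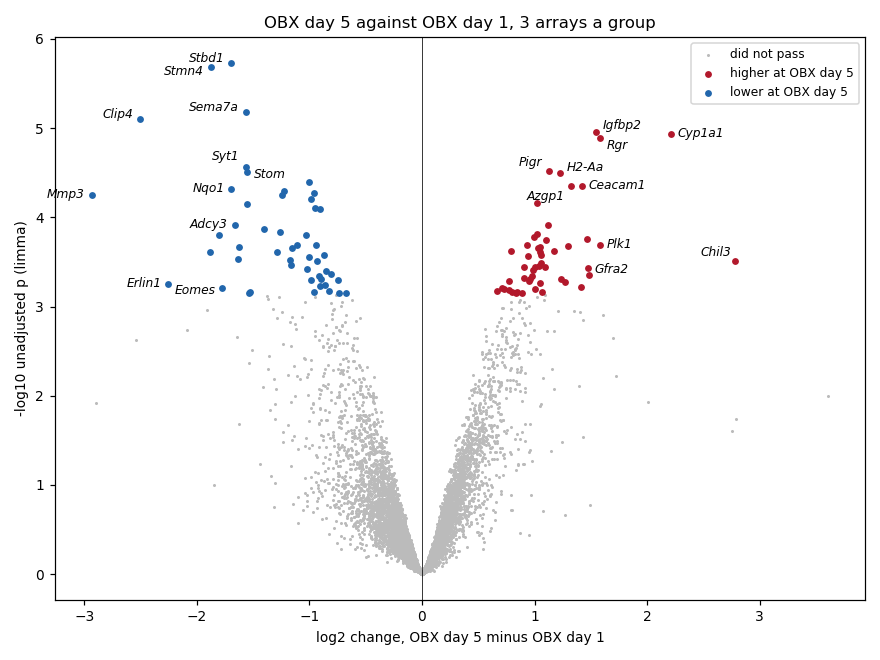
Each point is one of the 7063 tested probe sets, with its log2 change (OBX day 5 minus OBX day 1) on the horizontal axis and −log10 of the unadjusted limma p on the vertical axis. The 51 red points rose and the 50 blue points fell past an adjusted p of 0.05, Mmp3 furthest to the left among the called and Chil3 furthest to the right.

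The number of calls depended on the arrays used. With all 15 arrays sharing 1 estimate of the spread, 590 probe sets passed (8.35%), 297 higher (4.21%) and 293 lower (4.15%), with 98 of the 101 among them. The 3 that did not pass on 15 arrays were Mmp3, Lcn3 and Kng1, the last named after its values were seen. By genes 8.68% of 5473 passed on 15 arrays, and 9.56% without OBX day 5 replicate 1. Without OBX day 5 replicate 1 the count was 647, and all 101 were among them. Without any 1 of the OBX day 1 arrays it was 0, with 625 to 663 probe sets under an unadjusted p of 0.05 and a smallest adjusted p of 0.066 to 0.13. Within the second scan day it was also 0 (219 under an unadjusted p of 0.05), as it was with scan day as a block (361), and in each of these settings all 101 kept their direction. In those settings the direction was fixed in advance, because the days did not overlap in any of the 101 probe sets. With each group first set against its own control (OBX day 5 minus sham day 5, OBX day 1 minus untreated) 113 probe sets passed. These held only 64 of the 101, and 24 of the 60 called probe sets named here lost their call. This contrast draws on more groups, so a call can be lost without a smaller change. Its control for OBX day 1 had no surgery, and both controls were scanned on the earlier day. Only 1 OBX day 1 array shared its scan day with the OBX day 5 group, and beyond the values within that day the part of scan day in these changes was not tested. The plot of calls by setting gives the whole range.

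**Figure D2:**
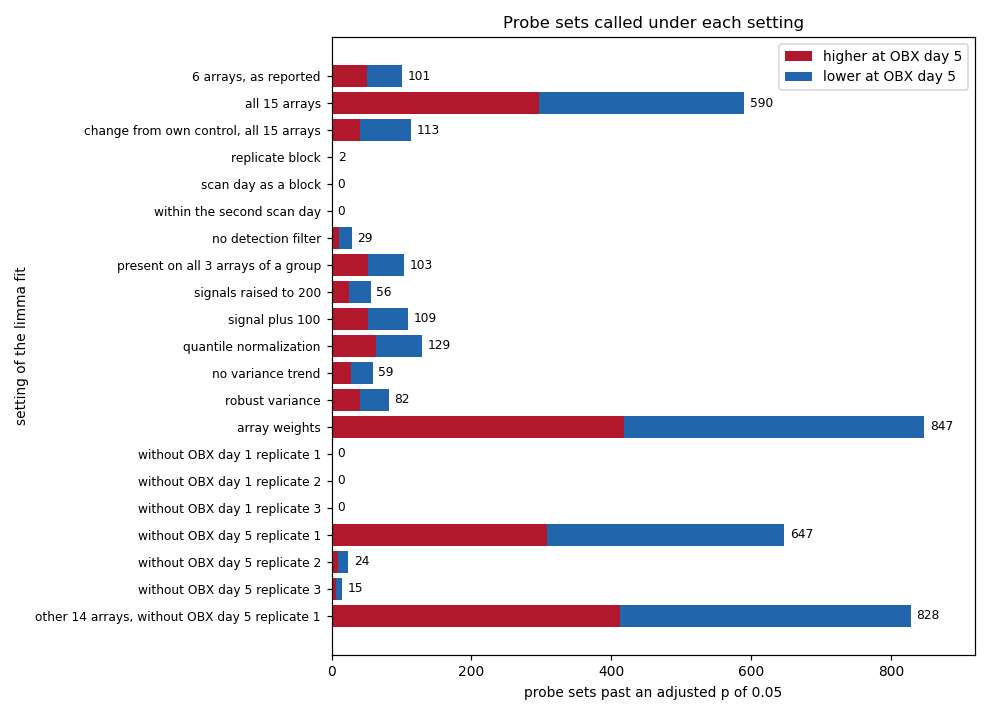
Bars give the number of probe sets past an adjusted p of 0.05 under each setting of the limma fit, those higher at OBX day 5 in red and those lower in blue. The counts run from 0, without any 1 of the OBX day 1 arrays or with scan day taken into account, through 101 on the 6 arrays to 847 with weighted arrays.

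In the list of neuronal and synaptic genes 5 of 26 tested genes fell, none rose and 21 did not pass, where 0.713% of all 5473 genes fell. The list's median change was −0.36, against −0.02 over all genes. Syt1, the calcium sensor of vesicle release, gave signals of 4212, 4283 and 3964 on the OBX day 1 arrays and 1375, 1762 and 1145 on the OBX day 5 arrays. Every day 5 array was below every day 1 array, and the change was −1.56 ± 0.18 (adjusted p = 0.0206). Snap25, a membrane protein of the vesicle fusion machinery, went from 4923, 5279 and 4716 to 1266, 2160.2 and 1774. Its lowest signal was on OBX day 5 replicate 1, the groups did not overlap, and it fell by 1.55 ± 0.20 (adjusted p = 0.0226).

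Vsnl1, a neuronal calcium sensor, was at 1859, 1668 and 1656 on day 1 and 519.4, 833.5 and 396.3 on day 5 and fell by 1.64 ± 0.27 on the log2 scale. Chga, a protein of dense-core secretory granules, was at 7365, 8069 and 7163 and then 3941, 2672 and 1679, a fall of 1.53 ± 0.28. Dnm1, the GTPase that pinches off endocytic vesicles, fell by 0.91 ± 0.16 on its brighter probe set, from 14698, 13807 and 13694 to 9293, 7236 and 6284. For these 3 genes, as for Syt1 and Snap25, the arrays of each day formed separate ranges, and the adjusted p was 0.0387 for Vsnl1 and 0.0497 for both Chga and Dnm1. The dimmer probe set of Dnm1 was at −0.80 ± 0.16 and missed the threshold (adjusted p = 0.0553). On 15 arrays 8 genes of this list fell and 1 rose, beside 4.2% of all genes falling. Without OBX day 5 replicate 1 the counts were 12 and 1, beside 4.95%. Within the second scan day the 5 genes were at −1.58 to −0.87.

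Among the genes of mature olfactory sensory neurons 2 of 14 fell, where 0.713% of all genes fell. None rose and 12 did not pass, with a median of −0.18. Adcy3, the adenylyl cyclase that makes cAMP in response to odours, gave 5244, 4638 and 5306 at day 1 and 2276, 1509 and 1175 at day 5. It fell by 1.67 ± 0.24 on the log2 scale (adjusted p = 0.0331), with no overlap between the days. S100a5, which binds calcium, gave 37880.0, 41088 and 36237 and then 18544, 17796 and 13345, a fall of 1.23 ± 0.15 (adjusted p = 0.0209). Omp gave 31600.3, 28359 and 27411 on day 1 and 19232, 12480.0 and 5420.4 on day 5. All its day 5 signals were below all its day 1 signals, but those of day 5 were widely spread, and its change of −1.41 ± 0.40 did not pass (adjusted p = 0.153).

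Omp passed on 15 arrays (adjusted p = 0.00649) and without OBX day 5 replicate 1, its highest day 5 array (−1.82, adjusted p = 0.0057). The list as a whole showed the same dependence, with 6 genes falling in either of these fits and none rising. Of all genes 4.2% fell on 15 arrays and 4.95% without OBX day 5 replicate 1. Its median level relative to untreated mice was −0.44 to −0.35 on the OBX day 1 arrays and −1.06 to −0.76 on the OBX day 5 arrays, and all OBX arrays of both days were below those of untreated and sham mice. A median level can rest on different genes on each array, and the median of the genes' own changes was smaller, at −0.18. None of 7 tested odorant receptor genes passed (20 were on the array, and 12 of them had no present call on the 6 arrays). Their median was −0.61, and Olfr1507, the receptor with the smallest p, was at 1502, 1505 and 1306 and 571.6, 1106 and 281.2 (−1.35 ± 0.43, adjusted p = 0.207). Olfr1509, the next, was at −0.72 ± 0.23 (adjusted p = 0.208). On 15 arrays both fell, Olfr1507 with an adjusted p of 0.0212 and Olfr1509 with 0.014, beside 4.2% of all genes. Without OBX day 5 replicate 1 no receptor passed.

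The largest falls also held genes outside the neuronal lists. Olfm1, a secreted glycoprotein of neurons first found in olfactory tissue, gave 4326, 5429 and 4464 on day 1 and 1846, 1496 and 885.5 on day 5 and fell by 1.81 ± 0.27 (adjusted p = 0.0358). Drd2, the D2 dopamine receptor, through which bulb interneurons inhibit the terminals of sensory neurons, fell by 1.62 ± 0.25, from 3088, 2669 and 2652 to 1232, 982.3 and 616.1 (adjusted p = 0.036). Stom, a membrane protein that regulates ion channels, fell by 1.56 ± 0.18 on its brighter probe set, from 31508, 27377 and 26816 to 12405, 7836 and 9357 (adjusted p = 0.0206). In each of them the highest day 5 signal was on replicate 1. It was below the lowest day 1 signal, as the rule for naming them required. The dimmer probe set of Stom was at −0.33 ± 0.36 with overlapping days and did not pass (adjusted p = 0.71).

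Eomes, a transcription factor known from projection neurons of the bulb, was measured by a pair of probe sets. One gave 187.1, 197.3 and 181.0 on day 1 and 47.9, 47.3 and 73.2 on day 5, a fall of 1.78 ± 0.32 (adjusted p = 0.0497). The brighter one was called absent on all OBX day 5 arrays, at least 3.68-fold lower there, and did not pass (adjusted p = 0.184), its signals on day 5 being 23.9, 180.3 and 12.5. In the list of olfactory bulb neurons, which also holds Snap25 and Eomes, only Snap25 passed among 5 tested genes, and 10 of its 18 genes on the array had no present call on the 6 arrays. The summed signal of the tested genes of that list was 7057 to 7450 on the day 1 arrays and 3950 to 4886 on the day 5 arrays, and Snap25, which is also on the synaptic list, made up most of the day 1 sum and of its difference. The median level of the list, relative to untreated mice, was −0.24 to 0.16 on day 1 and −0.67 to 0.16 on day 5, with overlap. The part that remnants of bulb tissue have in these falls was not tested.

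**Figure D3:**
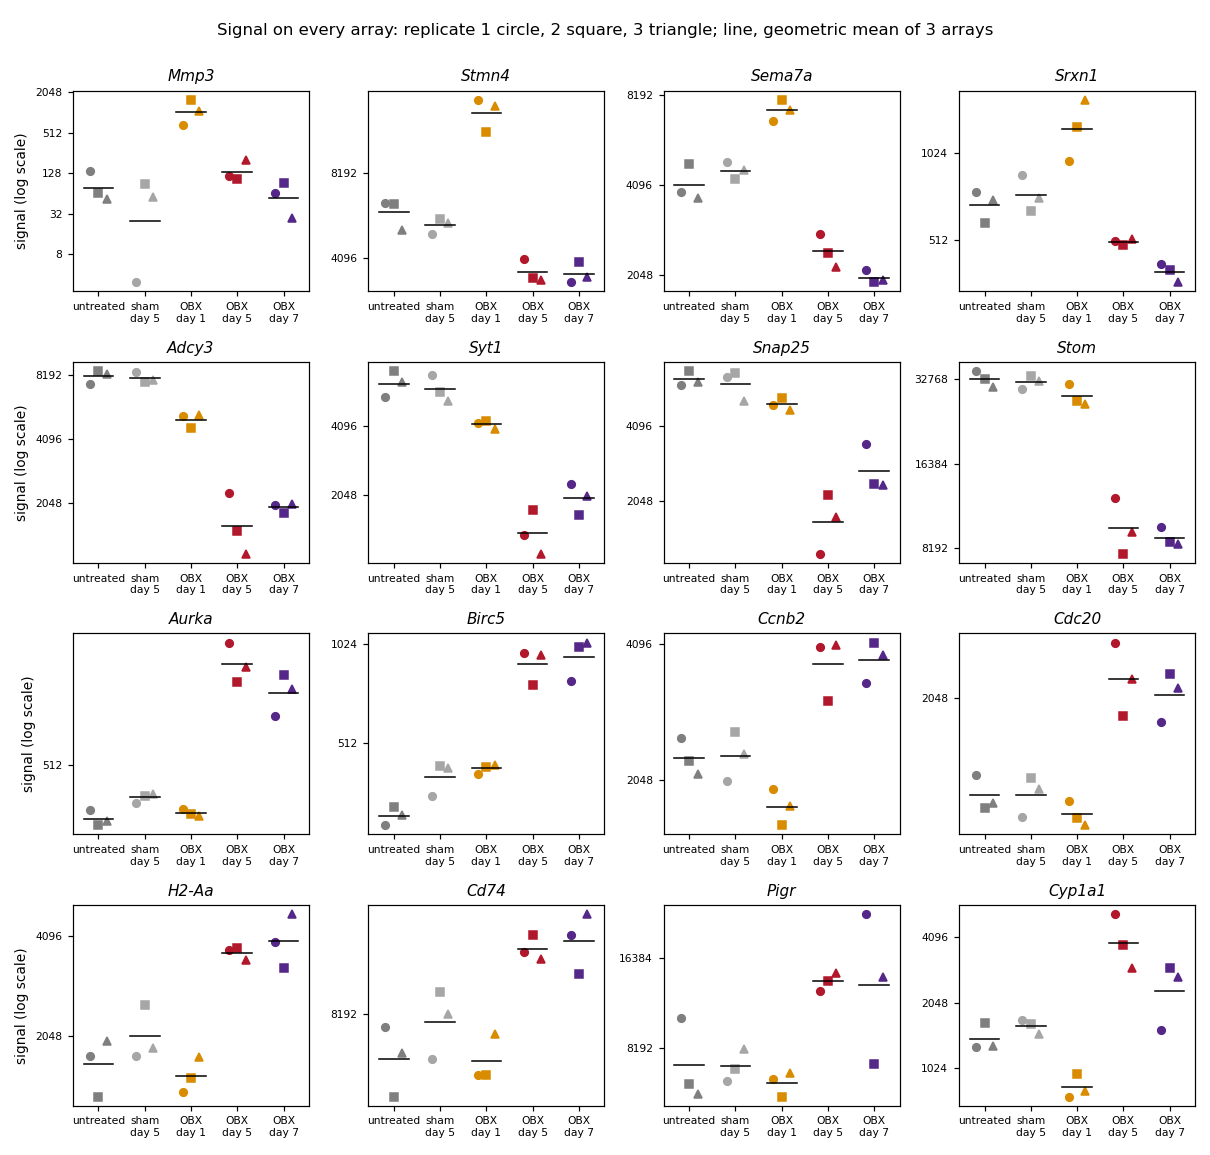
Signals of 16 named genes on all 15 arrays, on a log2-scaled axis, with the groups along the horizontal axis, circles, squares and triangles for replicates 1, 2 and 3, and a line at the geometric mean. Mmp3, Stmn4, Sema7a and Srxn1 (top) are highest at OBX day 1, and Adcy3, Syt1, Snap25 and Stom beneath them step down from day 1 to day 5. The mitotic genes (Aurka, Birc5, Ccnb2, Cdc20) stand higher at days 5 and 7 than on the other arrays.

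Several genes that fell were higher on day 1 than on any other array. Stmn4, a regulator of microtubules in the family of stathmin, was at 14842, 11389.8 and 14128 on day 1 and 4049, 3474 and 3432 on day 5, and fell by 1.88 ± 0.15 on the log2 scale (adjusted p = 0.00723). Untreated and sham arrays lay between, at 4977 to 6396, and OBX day 7 arrays were at 3360.2 to 3954. Sema7a, a membrane-anchored semaphorin that promotes axon growth, followed the same course, with 6727, 7907 and 7283 on day 1, 2816, 2425 and 2188 on day 5 and 3705 to 4878 on untreated and sham arrays. It fell by 1.56 ± 0.15 (adjusted p = 0.013). For both genes the 6 arrays of mice with bulbs lay below every day 1 array and above every day 5 array.

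Mmp3, the matrix metalloprotease stromelysin 1, showed the largest fall. It gave 671.1, 1572 and 1058 on day 1 and 118.2, 103.4 and 203.7 on day 5, where 2 arrays called it present, and fell by 2.94 ± 0.37 (adjusted p = 0.0209). On untreated and sham arrays it was at 3.1 to 136.6, and on OBX day 7 arrays at 27.9 to 91.3, all below every day 1 signal. None of the untreated, sham and OBX day 7 arrays called it present, and the sham signals were 3.1, 88.4 and 57.8. It did not pass on 15 arrays (SE 0.92, adjusted p = 0.062), nor against own controls, where the change was −1.30 (adjusted p = 0.703). Both fits take in these signals not called present, so this smaller change does not measure a smaller fall. In the list of matrix and wound repair genes Mmp3 alone fell and Col5a2, a fibrillar collagen chain, alone rose (0.67 ± 0.12, adjusted p = 0.0497). The list held 47 tested genes with a median of 0.22, and 0.713% of all genes fell and 0.749% rose. On 15 arrays 12 genes of this list rose and 1 fell, beside 4.48% and 4.2% of all genes. Against own controls Col5a2 narrowly missed the threshold (adjusted p = 0.0504). Mbl2, a lectin that starts the complement cascade, had signals of 933.3, 758.8 and 874.3 on day 1 and 153.3, 233.9 and 343.9 on day 5 and fell by 1.88 ± 0.30 (adjusted p = 0.0363).

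Of 26 tested genes for stress and hypoxia 2 fell (0.713% of all genes did), none rose and 24 did not pass, with a median of −0.29. Srxn1, sulfiredoxin, which restores oxidised peroxiredoxins, had signals of 960.3, 1257 and 1565 on day 1 and 507.6, 492.6 and 517.1 on day 5. The day 1 signals were widely spread and all above those of day 5, with a fall of 1.29 ± 0.20 (adjusted p = 0.0363). Ddit3, the transcription factor CHOP of the unfolded protein response, fell by 0.93 ± 0.15 (adjusted p = 0.0394), from 2954, 2398 and 2648 to 1237, 1477 and 1477. Nqo1, a quinone reductase and, like Srxn1, a known target of the oxidative stress regulator Nrf2, fell by 1.69 ± 0.21 on the dimmer of its probe sets (adjusted p = 0.0209). The brighter one, which stands for the gene in the list, was at −1.38 ± 0.26 (adjusted p = 0.0521). The dimmer probe set gave 2080.1, 2421 and 2684 on day 1 and 905.2, 559.6 and 787.9 on day 5, and its day 1 mean lay within the untreated and sham range of 1790.4 to 2568. By its name this probe set shares probes with related sequences, so its gene is uncertain.

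On 15 arrays 9 genes of the stress list fell, beside 4.2% of all genes, and without OBX day 5 replicate 1 there were 7, beside 4.95%. Against own controls Ddit3 lost its call (−0.84, adjusted p = 0.116). Within the second scan day Srxn1 was at −1.63 and Ddit3 at −0.93. The list's median level relative to untreated mice was 0.17 to 0.34 on the day 1 arrays and 0.04 to 0.10 on the day 5 arrays, while sham arrays were at −0.07 to 0.02. Genes of the apoptosis list gave 2 falls among 26 tested genes and no rise, where 0.713% of all genes fell. Bcl2l11 (Bim), which activates the mitochondrial death pathway, fell by 0.87 ± 0.14 (adjusted p = 0.0376), from 3348, 3389.5 and 3572 to 2115, 1797 and 1736. Cidea, a lipid droplet protein with a domain shared with DNA fragmentation factors, fell by 1.15 ± 0.18 (adjusted p = 0.036), from 2769, 3056 and 3165 to 1566, 1067 and 1458. Both lay above the untreated and sham range on day 1, and Bcl2l11 was back within it on day 5, where Cidea was below it.

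None of 22 tested immediate early genes passed. Their median was −0.18, and on 15 arrays 2 fell, beside 4.2% of all genes. Fos, whose protein is a subunit of AP-1, was at 677.5, 2089 and 1002 on day 1 and 745.4, 633.2 and 1643 on day 5, with overlapping groups and a change of −0.29 ± 0.48 (adjusted p = 0.811). Ccn2, a matrix-associated growth regulator, was at −0.88 ± 0.21 (adjusted p = 0.0918) and the phosphatase Dusp1 at −0.59 ± 0.16 (adjusted p = 0.147), and in both the days did not overlap. Egr1 did not meet the detection filter and was not tested. None of 20 genes for cytokine signalling and the acute phase passed (median −0.17). Serpina3n, an acute phase protease inhibitor, was at 29742, 29616 and 32975 and then 15128, 23616 and 18964 (−0.70 ± 0.17, adjusted p = 0.106), and Osmr, the oncostatin M receptor, at −1.31 ± 0.36 (adjusted p = 0.143). On 15 arrays 2 genes of this list fell, Osmr among them (adjusted p = 0.00966), beside 4.2% of all genes. Without OBX day 5 replicate 1 there were 4, again with Osmr (adjusted p = 0.0169), beside 4.95%. All 6 Serpina3n signals were above the untreated and sham range of 5850.1 to 14634. None of the 3 metallothioneins passed, with Mt1 at −0.37 ± 0.18, Mt2 at −0.47 ± 0.14 and Mt3 at −0.17 ± 0.25.

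**Figure D4:**
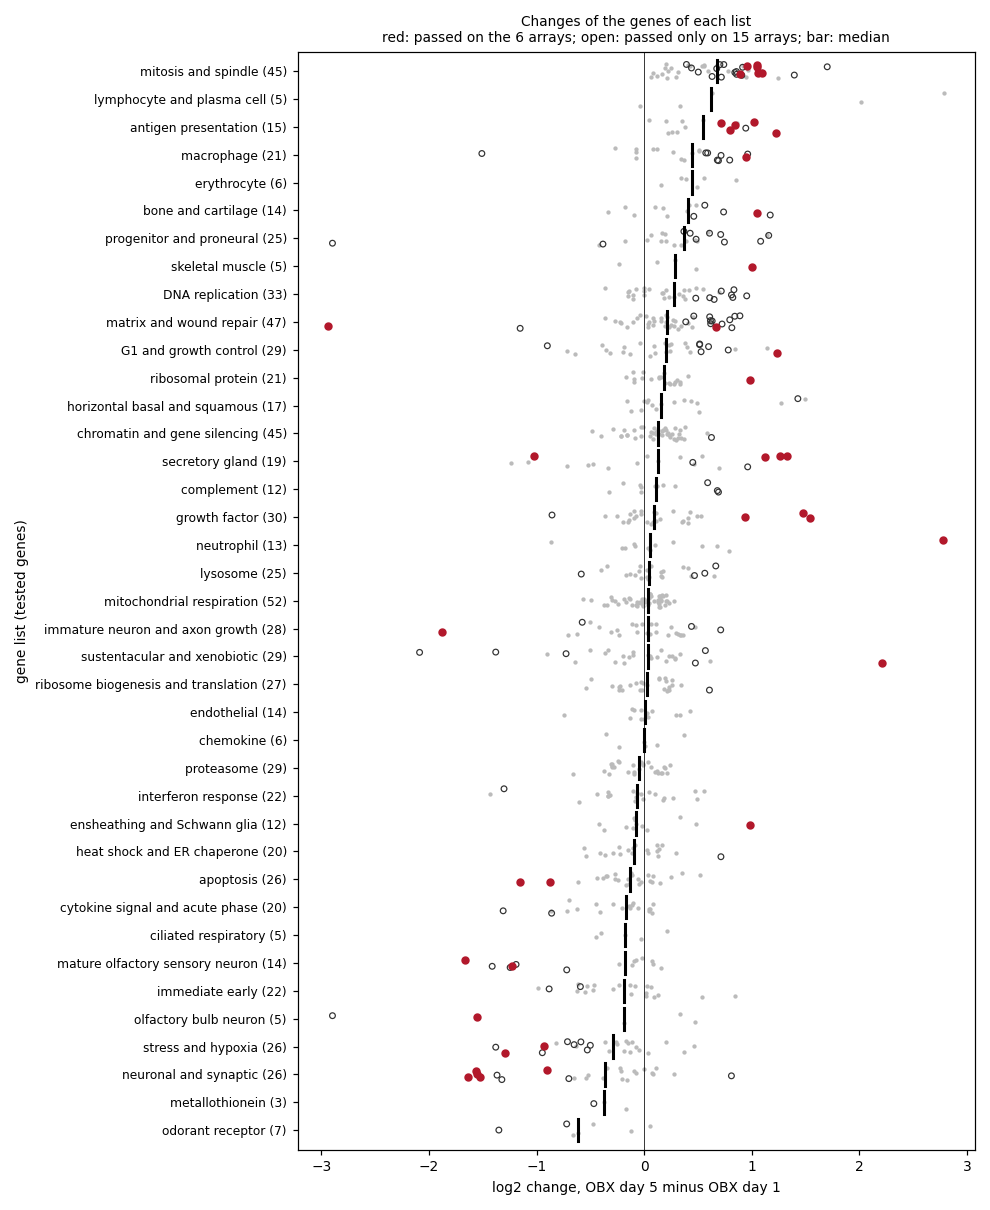
Log2 change from OBX day 1 to OBX day 5 (horizontal axis) of every tested gene of 39 lists, sorted by the list's median, shown as a bar, with the number of tested genes in brackets. Filled red points passed on the 6 arrays, open points passed on 15 arrays only and grey points did not pass, so that the mitosis list stands at the top with a median of 0.68 and all 45 genes above 0.

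In the mitosis and spindle list 6 of 45 tested genes rose and none fell, with 39 short of the threshold, where 0.749% of all 5473 genes rose. The median change was 0.68, and all 45 changes were above 0, which was so for 2628 of the 5473 genes. Aurka, the kinase that matures centrosomes and builds the spindle, gave 412.5, 402.8 and 398.4 on day 1 and 931.6, 767.0 and 826.7 on day 5 (change 1.05 ± 0.16, adjusted p = 0.036). Ccnb2, a B-type cyclin that drives entry into mitosis, gave 1958, 1631 and 1797 and then 4046, 3067 and 4086 (change 1.05 ± 0.17, adjusted p = 0.0363). Birc5 (survivin), a subunit of the chromosomal passenger complex, gave 411.2, 433.5 and 438.6 and then 967.3, 767.6 and 949.2 (change 1.06 ± 0.17, adjusted p = 0.0376). In all 3 genes the day 1 signals lay close together and every day 5 signal was well above them.

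Cdc20, which activates the anaphase-promoting complex, rose by 0.89 ± 0.17 (adjusted p = 0.0497), from 1284, 1187 and 1148 to 2644, 1887 and 2243. Plk1, the polo-like kinase, rose on both of its probe sets. The brighter one gave 940.8, 800.0 and 719.5 and then 1642, 1390.3 and 1729 (change 0.96 ± 0.17, adjusted p = 0.0471), and the dimmer one, called absent on all day 1 arrays, was at least 2.94-fold higher on day 5 (adjusted p = 0.036). Kif20a, a kinesin of the central spindle, was absent on all day 1 arrays by both of its probe sets. It was at least 2.14-fold higher on day 5 on the brighter one (adjusted p = 0.036), and the bound on the dimmer one, which did not pass, was 2.31-fold (adjusted p = 0.0613). These bounds set the mean of the day 5 signals against the day 1 signals raised, where lower, to the lowest signal called present on the same array. They leave out the spread between arrays, as do the bounds given for other genes. For Kif20a here, and for Mycn and Igha below, the bound equals the fold of the fit. The dimmer Plk1 and the brighter Kif20a probe set share probes with related sequences by their names, so their genes are uncertain.

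On 15 arrays 22 of the 45 mitosis genes rose and none fell, beside 4.48% of all genes rising. Without OBX day 5 replicate 1 there were 26 rises, beside 4.6% of all genes. Within the second scan day the median of the list was 0.63, and the 6 genes were at 0.96 to 1.14. Against own controls 2 of the 6 lost their call, Birc5 (0.66, adjusted p = 0.163) and Kif20a (0.94, adjusted p = 0.0729). The list's median level relative to untreated mice was −0.09 to −0.01 on day 1 arrays, 0.43 to 0.72 on day 5 arrays and 0.58 to 0.84 on day 7 arrays. Top2a, the topoisomerase of dividing cells, was at 513.3, 450.7 and 518.9 and then 577.7, 861.6 and 1073 and did not pass (0.72 ± 0.24, adjusted p = 0.235). Mki67, the Ki-67 antigen, was at 787.6, 622.9 and 818.3 and then 748.2, 1474 and 1854 on its brighter probe set (0.78 ± 0.32, adjusted p = 0.325), and OBX day 5 replicate 1 lay within the day 1 range. Without that array both were higher at day 5 with an adjusted p of 0.00838 for Top2a and 0.00427 for Mki67. The dimmer probe set of Mki67 was at −0.19 ± 0.26 (adjusted p = 0.769).

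The promoters of these genes are shown because genes of late cell cycle are known to share elements near their start, CCAAT boxes, bound by NF-Y, and the cell cycle homology region TTTGAA. Promoters came from RefSeq (GRCm38.p6), the 250 bases before the first listed start of a gene, and were matched by gene for 37 of the 45 mitosis genes and 4445 of the 5473 tested genes. Both strands were searched, ATTGG and TTCAAA being the reverse complements. The sequences below are all those available for the 6 mitosis genes that rose, Kif20a left out, with matches to either element in capitals.
Aurka, chr2:172370571-172370820, minus strand: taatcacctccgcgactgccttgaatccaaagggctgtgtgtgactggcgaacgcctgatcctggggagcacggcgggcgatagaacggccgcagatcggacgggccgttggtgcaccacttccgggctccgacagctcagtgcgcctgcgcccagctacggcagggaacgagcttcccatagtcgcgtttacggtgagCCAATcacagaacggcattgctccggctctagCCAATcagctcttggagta
Ccnb2, chr9:70421555-70421804, minus strand: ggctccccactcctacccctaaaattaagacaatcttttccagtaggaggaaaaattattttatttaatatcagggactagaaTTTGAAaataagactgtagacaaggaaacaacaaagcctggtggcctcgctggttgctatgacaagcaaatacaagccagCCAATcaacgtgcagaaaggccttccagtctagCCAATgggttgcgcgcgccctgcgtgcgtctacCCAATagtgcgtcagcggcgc
Birc5, chr11:117848987-117849236, plus strand: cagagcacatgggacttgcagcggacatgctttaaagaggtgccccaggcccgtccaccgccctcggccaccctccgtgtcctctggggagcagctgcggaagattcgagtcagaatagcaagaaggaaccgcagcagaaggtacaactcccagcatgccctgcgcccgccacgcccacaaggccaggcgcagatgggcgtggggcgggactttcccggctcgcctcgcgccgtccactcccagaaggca
Plk1, chr7:122159185-122159434, plus strand: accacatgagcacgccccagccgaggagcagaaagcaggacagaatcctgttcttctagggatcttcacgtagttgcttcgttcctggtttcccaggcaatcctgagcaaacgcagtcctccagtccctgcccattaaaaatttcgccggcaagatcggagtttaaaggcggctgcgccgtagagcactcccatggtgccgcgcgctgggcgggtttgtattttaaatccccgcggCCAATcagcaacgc
Cdc20, chr4:118437344-118437593, minus strand: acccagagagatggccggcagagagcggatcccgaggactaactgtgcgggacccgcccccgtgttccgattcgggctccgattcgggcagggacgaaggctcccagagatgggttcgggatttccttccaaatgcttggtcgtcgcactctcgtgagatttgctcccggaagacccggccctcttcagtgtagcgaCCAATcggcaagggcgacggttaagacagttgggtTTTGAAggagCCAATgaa
Aurka and Cdc20 have 2 CCAAT matches each, Ccnb2 has 3, Plk1 has 1 and Birc5 has none. TTTGAA is found once in Ccnb2 and once in Cdc20. Over the mitosis list 28 of 37 promoters (75.7%) had a CCAAT match and 15 (40.5%) a TTTGAA match, beside 36.2% and 10.8% of the promoters of all tested genes and 34.5% and 16.3% of all 27025 promoters. CCAAT was also found in 63.3% of promoters of the DNA replication list, 68.2% of the stress list and 72.7% of the antigen presentation list, and its share in the mitosis list was thus close to theirs, while TTTGAA was found in 13.3%, 4.5% and 9.1% of them. In all 5 motifs were searched, the others being TGACNNNGC, TTGGCGC and GAANNTTC, which were found in 16.2%, 8.1% and 8.1% of the mitosis promoters. The elements were chosen with the changes of these genes known, and a match is a description of the sequence and not of binding.

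None of 33 tested DNA replication genes passed by their brightest probe set, with a median of 0.27. On 15 arrays 8 of them rose, beside 4.48% of all genes. Rrm2, the small subunit of ribonucleotide reductase, was at 426.0, 556.6 and 459.7 and then 949.1, 799.0 and 1044 (0.95 ± 0.19, adjusted p = 0.0579). Mcm3, a subunit of the replicative helicase, rose by 1.06 ± 0.20 on its dimmer probe set (adjusted p = 0.0497), from 428.4, 440.6 and 378.1 to 967.7, 690.9 and 975.8, and was at 0.82 ± 0.18 on the brighter one (adjusted p = 0.0803). Pcna, the sliding clamp of DNA polymerase, was at 3766, 4972 and 4519 and then 5001, 5201 and 4990.2, a change of 0.21 ± 0.14 that did not pass (adjusted p = 0.563). In the list for G1 and growth control 1 of 29 genes rose, beside 0.749% of all genes, with a median of 0.20. On 15 arrays 6 of them rose and 1 fell, beside 4.48% and 4.2% of all genes. Mycn, a transcription factor of proliferating progenitors, was absent on all day 1 arrays (155.5, 159.2 and 184.8) and present on all day 5 arrays (342.1, 435.3 and 401.5), at least 2.36-fold higher (adjusted p = 0.0471). Against own controls Mycn did not pass (adjusted p = 0.256).

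None of 25 tested genes of the progenitor and proneural list passed on the 6 arrays. The median was 0.37, and 21 changes were above 0. On 15 arrays 8 rose and 2 fell, beside 4.48% and 4.2% of all genes. Hes6, a transcriptional repressor of differentiating neurons, was at 2310.5, 2086 and 2379.8 on day 1 and 6539, 4234 and 3939.9 on day 5 (1.08 ± 0.21, adjusted p = 0.054). Kit, the receptor kinase of a subset of globose basal cells, was at 773.8, 876.7 and 1037 and then 1551, 1417 and 1511 (0.75 ± 0.16, adjusted p = 0.0768). Neurog1, the proneural factor of neuronal precursors, was at 643.2, 347.1 and 574.4 and then 1574, 898.0 and 1009 (1.16 ± 0.30, adjusted p = 0.12). In none of the 3 did the days overlap, and Hes6 and Neurog1 were highest on OBX day 5 replicate 1. Without that array the adjusted p was 0.00184 for Hes6, 0.0192 for Kit and 0.0557 for Neurog1. Gap43 was at 8858, 9431 and 9224 and then 11278, 11678 and 10735 (0.29 ± 0.12, adjusted p = 0.307). In the list of Gap43, immature neuron and axon growth, Stmn4 alone passed among 28 genes, and the median was 0.04.

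Of 15 tested genes of antigen presentation 5 rose (0.749% of all genes did), none fell and 10 did not pass. All 15 changes were above 0, with a median of 0.54. H2-Aa, the alpha chain of a class II molecule, gave 1391, 1533 and 1767 on day 1 and 3714, 3763 and 3473 on day 5 (change 1.23 ± 0.14, adjusted p = 0.0206). H2-Eb1, a class II beta chain, gave 2111, 2033 and 2547 and then 4417, 4008 and 3544 (change 0.84 ± 0.15, adjusted p = 0.0497). Cd74, the invariant chain that escorts class II molecules, gave 5564, 5558 and 7205 and then 12058, 13449 and 11539.6 (change 1.02 ± 0.15, adjusted p = 0.0358). The days did not overlap in any of them, and the third OBX day 1 array, scanned with the day 5 arrays, was the highest of day 1 in all 3. Within the second scan day their changes were 1.04, 0.64 and 0.77. Against own controls all 5 genes that rose lost their call. H2-Aa was at 0.95 (adjusted p = 0.0729), H2-Eb1 at 0.77 (adjusted p = 0.183) and Cd74 at 0.68 (adjusted p = 0.265). Of the class I genes below, H2-D1 kept a change of 0.80 (adjusted p = 0.0663) and H2-K1 was at 0.62 (adjusted p = 0.223). The median level of the list, relative to untreated mice, was −0.12 to 0.44 on the sham arrays, 0.16 to 0.23 on day 1 and 0.79 to 0.95 on day 5.

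The class I genes H2-D1 and H2-K1 rose as well, by 0.80 ± 0.12 (adjusted p = 0.0363) and 0.71 ± 0.13 (adjusted p = 0.0497) on their brightest probe sets. H2-D1 gave 7967, 7534 and 8257 on day 1 and 14894, 13846 and 12568 on day 5, and both of its other probe sets also rose, by 1.17 and 0.73. H2-K1 gave 10403, 9495 and 11561 and then 18109, 17487 and 15929, while its other probe set was at 0.33 ± 0.15 (adjusted p = 0.383). Class I genes are near-identical copies of each other, and by their names these probe sets share probes across a sequence family, so the assignment to a single gene is uncertain. On 15 arrays 6 genes of the list rose, beside 4.48% of all genes, and without OBX day 5 replicate 1 there were 7, beside 4.6%. The promoters of the class II genes that rose are shown with CCAAT matches in capitals, since class II promoters are known for a conserved box of this kind (the Y box) near the start.
H2-Aa, chr17:34287824-34288073, minus strand: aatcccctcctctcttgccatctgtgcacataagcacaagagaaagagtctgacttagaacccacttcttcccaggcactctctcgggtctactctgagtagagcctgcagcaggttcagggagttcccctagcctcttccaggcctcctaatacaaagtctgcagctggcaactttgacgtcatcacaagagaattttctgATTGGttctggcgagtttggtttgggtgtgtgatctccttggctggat
H2-Eb1, chr17:34305617-34305866, plus strand: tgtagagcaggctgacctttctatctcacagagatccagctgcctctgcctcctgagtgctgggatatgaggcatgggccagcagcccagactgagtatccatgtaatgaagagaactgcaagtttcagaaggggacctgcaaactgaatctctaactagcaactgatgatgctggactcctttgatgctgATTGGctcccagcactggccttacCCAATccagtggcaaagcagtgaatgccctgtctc
H2-Aa has 1 match and H2-Eb1 has 2, and neither has TTTGAA in this window.

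In the macrophage list Cd52, a surface glycoprotein of leukocytes, rose by 0.95 ± 0.15 (adjusted p = 0.0379), from 1311, 1536 and 1618 to 2954, 2561 and 3080.4. It was the only one of 21 tested genes to pass, where 0.749% of all genes rose, and the median was 0.45. On 15 arrays 8 rose and 1 fell, beside 4.48% and 4.2% of all genes. The summed signal of the list was 53450 to 55520 on day 1 arrays and 78780 to 85180 on day 5 arrays, without overlap. Cd68, a lysosomal protein of macrophages, was at 2184, 2155 and 1899 and then 2498, 1512 and 2035, with overlapping days (−0.07 ± 0.20, adjusted p = 0.889). C1qa and C1qc, chains of complement C1q made by macrophages, were at 0.68 ± 0.14 (adjusted p = 0.0709) and 0.69 ± 0.17 (adjusted p = 0.0998). The summed macrophage signal was thus higher in the group in which the class II genes above rose, and its part in that rise was not tested. Cd52 lost its call against own controls (0.77, adjusted p = 0.267).

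Chil3, a chitinase-like lectin of alternatively activated macrophages and neutrophils, showed the largest rise, from 1286, 1337 and 1555 on day 1 to 4141, 13018 and 16139 on day 5 (change 2.78 ± 0.46, adjusted p = 0.0394). Its lowest day 5 signal was on replicate 1, without which the change was 3.38. Against own controls the change of 2.51 missed the threshold (adjusted p = 0.105), and untreated and sham arrays ranged over 958.8 to 4788. No other of 13 tested neutrophil genes passed, and the median of that list was 0.05. In the list of lymphocytes and plasma cells none of 5 tested genes passed, and 13 of the 23 on the array had no present call. Its summed signal was 2485 to 3019 on day 1 and 3149 to 21810 on day 5. Igha, the heavy chain of immunoglobulin A, was called absent on all day 1 arrays (886.2, 658.4 and 868.9). It was called present on all day 5 arrays (17739, 949.4 and 9984). Its fold by mean log2 signal was 6.92, as was its bound, and it did not pass (adjusted p = 0.233). Without OBX day 5 replicate 1 its change was 1.95 on the log2 scale. Jchain, the chain that joins immunoglobulin A dimers, was at 350.5, 274.7 and 326.2 and then 1795, 414.1 and 2779 (2.01 ± 0.62, adjusted p = 0.183). Both were high on day 5 replicates 1 and 3 and low on replicate 2. None of 22 interferon response genes passed (median −0.07), and Ifit1, induced by type I interferon, was at −1.30 ± 0.40 (adjusted p = 0.188) and Ifi27, also induced by it, at 0.49 ± 0.19 (adjusted p = 0.304).

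**Figure D5:**
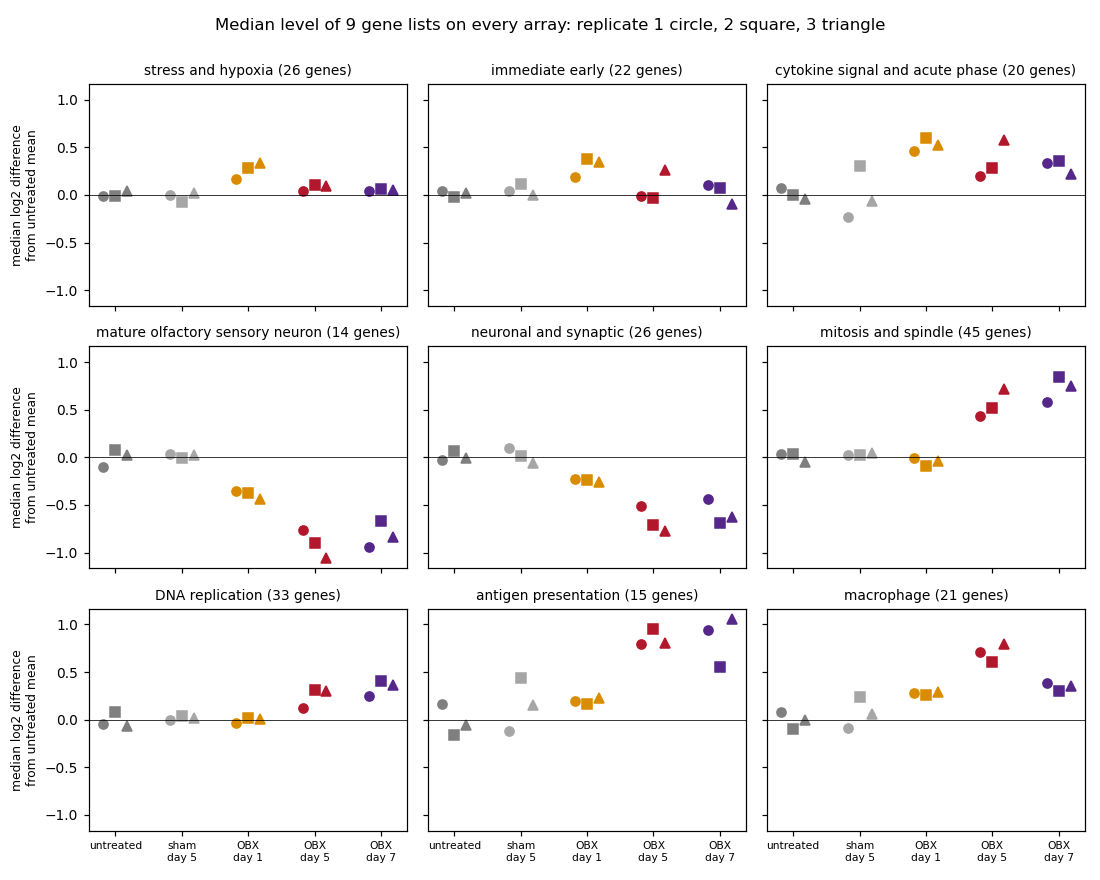
Median level of 9 gene lists on each of the 15 arrays, as the median log2 difference from the untreated mean (vertical axis), with circles, squares and triangles for replicates 1, 2 and 3. The stress list is highest at OBX day 1 (0.17 to 0.34), and the mitosis list is near 0 at day 1 and at 0.43 to 0.72 on day 5. The median level of the mature neuron list falls in steps to −1.06 to −0.76 on day 5, while the median of its genes' own changes is −0.18.

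In the secretory gland list 3 of 19 genes rose and 1 fell, beside 0.749% and 0.713% of all genes, with a median of 0.13. On 15 arrays 5 of them rose and none fell, beside 4.48% and 4.2% of all genes. Without OBX day 5 replicate 1 there were 4 rises and 3 falls, beside 4.6% and 4.95%, and the median was −0.03. Pigr, the receptor that carries immunoglobulin A across epithelia, rose from 6448, 5656 and 6761 to 12724, 13741 and 14658 (change 1.13 ± 0.13, adjusted p = 0.0206). Azgp1, a secreted zinc-binding glycoprotein, rose by 1.32 ± 0.16 (adjusted p = 0.0209), from 528.3, 421.8 and 536.2 to 1240.4, 1261 and 1201. Tff2, a trefoil peptide of mucus, rose by 1.27 ± 0.23 (adjusted p = 0.0475), from 2075, 2539.6 and 2955 to 8061, 4778 and 5633, and was highest on OBX day 5 replicate 1. Lcn3, a lipocalin of nasal glands, fell by 1.02 ± 0.17 (adjusted p = 0.0418), from 13591, 14521 and 15801 to 9080.0, 6078 and 6707. On untreated and sham arrays Lcn3 ranged over 1452 to 9340.0 and on OBX day 7 arrays over 495.7 to 11676, and it did not pass on 15 arrays (adjusted p = 0.502). Against own controls Lcn3 was at −0.13 (adjusted p = 0.978), and Pigr (1.13, adjusted p = 0.252) and Tff2 (1.20, adjusted p = 0.116) also lost their call.

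Cyp1a1, the oxidase induced by the aryl hydrocarbon receptor, rose from 758.4, 964.3 and 803.0 to 5245, 3758 and 2953 (change 2.21 ± 0.23, adjusted p = 0.013). It was below the untreated and sham range (1276 to 1707) on day 1 and above it on day 5, and without OBX day 5 replicate 1, its highest array, the change was 1.99. It was the only one of 29 tested genes of the sustentacular and xenobiotic list to pass, where 0.749% of all genes rose, and the list's median was 0.03. On 15 arrays 3 genes of that list rose and 3 fell, beside 4.48% and 4.2% of all genes. Without OBX day 5 replicate 1 there were 2 rises and 7 falls, beside 4.6% and 4.95%, and the median was −0.04. Among growth factors and their binding proteins 3 of 30 rose and none fell, where 0.749% of all genes rose. Igfbp2, which binds insulin-like growth factors, rose from 1746, 1735 and 1510.3 to 5729.8, 4378 and 4536 (change 1.55 ± 0.16, adjusted p = 0.013). Sfrp2, a secreted antagonist of Wnt, rose by 0.94 ± 0.14 (adjusted p = 0.036), from 2645, 3161 and 2932 to 5697, 4958 and 6073. Its day 5 mean lay within the untreated and sham range of 5111 to 6267, and its day 1 mean below it. Gfra2, the co-receptor of neurturin, rose by 1.48 ± 0.25 (adjusted p = 0.0415), from 106.2, 147.1 and 116.2 to 382.1, 341.5 and 298.6.

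Several of the largest changes belonged to genes on none of the lists. Clip4, a protein with microtubule-binding domains, gave 1706, 1919.6 and 2109 on day 1 and 237.5, 354.5 and 443.7 on day 5 and fell by 2.51 ± 0.24 (adjusted p = 0.013). Stbd1, which binds glycogen, had the smallest p of all, with 3158, 3429 and 3251 and then 1080.4, 1026 and 935.4 (change −1.70 ± 0.14, adjusted p = 0.00723). Erlin1, a membrane protein of the endoplasmic reticulum, was absent on all day 5 arrays (80.0, 248.0 and 190.4) after 866.1, 665.0 and 714.1 on day 1, and was at least 4.33-fold lower (adjusted p = 0.0481). Absence of overlap between the days was a condition for naming these 3 genes. Erlin1 lost its call against own controls (adjusted p = 0.114).

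Upward, Rgr, an opsin of retinal pigment epithelium and glia, gave 697.3, 770.2 and 690.6 and then 2262, 2438 and 1808 (change 1.58 ± 0.16, adjusted p = 0.013). Ceacam1, an adhesion molecule of epithelia and leukocytes, gave 587.8, 671.4 and 700.0 and then 2032, 1799 and 1459.6 on one probe set and rose on both, by 1.42 ± 0.17 (adjusted p = 0.0209) and 1.09 ± 0.18 (adjusted p = 0.0409). Fmod, the collagen-binding proteoglycan fibromodulin, rose by 1.46 ± 0.22 (adjusted p = 0.036), from 1028, 965.5 and 891.4 to 3699, 2310.0 and 2167. Acy1, which removes acetyl groups from amino acids, rose by 1.29 ± 0.20 (adjusted p = 0.036), from 1537, 1962 and 1463 to 5139, 3646 and 3476. Cox6b2, a subunit of cytochrome oxidase known from testis, rose by 1.49 ± 0.26 (adjusted p = 0.0457), from 573.1, 399.6 and 386.5 to 1732, 1059 and 1059.9. Its probe set was called present on 2 OBX day 1 arrays, 1 untreated array and no sham array. By its name this probe set shares probes with related sequences, so its gene is uncertain. Fmod, Acy1 and Cox6b2 were highest on OBX day 5 replicate 1, and without it their changes were 1.22, 1.12 and 1.25.

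Genes from lists of other cell types also passed, where 0.749% of all genes rose. Col11a2, a collagen of cartilage, rose by 1.05 ± 0.19 (adjusted p = 0.0481) as the only one of 14 tested bone and cartilage genes on the 6 arrays. On 15 arrays 5 of them rose, beside 4.48% of all genes, and without OBX day 5 replicate 1 there were 4, beside 4.6%. On the 6 arrays 11 of 14 changes were above 0, with a median of 0.41. The summed signal of that list was 62510 to 75590 on day 1 arrays and 80800 to 84830 on day 5 arrays. Cox8b, a cytochrome oxidase subunit of muscle and brown fat, rose by 1.00 ± 0.17 (adjusted p = 0.0409), the only one of 5 tested genes of the skeletal muscle list, 17 of whose 35 genes on the array had no present call. Its other probe set was at 0.85 ± 0.22 (adjusted p = 0.121). S100b, a calcium-binding protein of glia, rose by 0.99 ± 0.17 (adjusted p = 0.0418) as the only one of 12 glial genes, and Rpl13a by 0.98 ± 0.17 (adjusted p = 0.0457) as the only one of 21 ribosomal protein genes. The summed glial signal was 51520 to 59020 on day 1 and 50680 to 52100 on day 5, and overlapped. Against own controls Col11a2, Cox8b, S100b and Rpl13a all missed the threshold, with adjusted p-values of 0.0519 to 0.0943.

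Other lists had no gene past the test. None of 6 erythrocyte genes passed, and the summed signal of that list was 31020 to 48240 on day 1 and 44300 to 85360 on day 5, with Hbb-b2, a beta globin, at 24109.7, 11824 and 9974 on the day 5 arrays. None of 17 genes of horizontal basal and squamous cells passed, and Krt17, a keratin of activated epithelium, was at 389.5, 302.4 and 368.9 and then 812.5, 439.3 and 2377, high on OBX day 5 replicate 3 (1.43 ± 0.54, adjusted p = 0.284). Bpgm, an enzyme of red cells, was at 0.39 ± 0.16 (adjusted p = 0.315) and the epithelial keratin Krt19 at 0.51 ± 0.20 (adjusted p = 0.308). The lists for endothelium (14 genes), ciliated cells (5), chemokines (6), complement (12), lysosome (25), chromatin and gene silencing (45), heat shock and chaperones (20), ribosome biogenesis (27), proteasome (29) and mitochondrial respiration (52) had medians between −0.17 and 0.13. In the complement list C1qa and C1qc, described above, had the smallest p. In the others the members with the smallest p had adjusted p-values from 0.0936 (Npc2, a cholesterol carrier of the lysosome, 0.67 ± 0.16) to 0.582 (Hspa2, a chaperone, 0.22 ± 0.16). Between these came Serpinh1, a collagen chaperone, at 0.71 ± 0.17, Acp2, a lysosomal phosphatase, at −0.58 ± 0.15, Nme2, a nucleoside diphosphate kinase, at 0.61 ± 0.17, and Smarcc1, a chromatin remodelling subunit, at 0.63 ± 0.22. The others were Hspa1a, H1f2, Psmc1, Psmd12, Ndufa5, Idh3a, Cxcl12, Ccl9, Tekt1, Tie1, Sele and Eif5, with changes from −0.75 (Sele) to 0.58 (H1f2). The levels of blood and squamous genes thus differed among the day 5 arrays, and their part in the spread of that group was not tested.

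Against mice with bulbs, the called probe sets fell into several courses. These are descriptions of means beside the range of the 6 untreated and sham arrays, and share the OBX arrays with the comparison itself. Of the 51 probe sets that rose, 24 were within that range on day 1 and above it on day 5, among them Aurka, Birc5, Cd74, H2-Aa and Chil3. Another 21 were below it on day 1 and above it on day 5, among them Igfbp2, Cyp1a1, Rgr and Ccnb2. Of the 50 that fell, 21 were already below the range on day 1 and lower still on day 5, among them Syt1, Snap25, Adcy3, Stom and Chga. For 10 the day 1 mean was above the range and the day 5 mean below it, among them Stmn4, Sema7a, Srxn1 and Ddit3. The remaining courses held 14 probe sets that went from within the range to below it, 5 that rose from above it, 3 that returned from above into it, 2 that fell and stayed above it and 1 that rose from below into it. At OBX day 7 the mean was nearer to that of day 5 than to that of day 1 for 99 of the 101 probe sets. The OBX day 5 and day 7 arrays shared the later scan day, and the untreated and sham arrays were all of the earlier one. The part of scan day in these courses cannot be told apart.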

How the data were processed

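Signal intensities per probe set and detection calls were used as the authors deposited them. From the values, each array's trimmed mean (2% from each end) was 1500.6 to 1500.7. The array software is not given in the sources used here. Of 12488 probe sets 66 array controls were left out, 10833 had 1 gene symbol in the platform annotation, 396 several and 1193 none. Signals were put on the log2 scale (floor 1, reached by no tested value) and fitted with limma 3.58.1 in R 4.3.3 (lmFit and eBayes with a variance trend, 4 residual degrees of freedom), on the 6 arrays only, with Benjamini-Hochberg adjustment over 7063 probe sets. A gene on a list was represented by its brightest tested probe set, and levels of a list are medians over its genes. Genes were named if on a fixed marker set, among the 15 largest rises or falls past the test with present calls on all 3 arrays of the group with more signal and no overlap, or as up to 6 called members of a list (else the 2 with the smallest p). The comparison, the gene lists and the choice of 6 arrays were made with earlier results of these data known. Gene aliases and all odorant receptor symbols of the array were added to the lists once the annotation was at hand, and motifs were looked at before the rule for printing promoters was set. No list or motif is independent support. The steps were tested on simulated data, where false calls were more frequent than the nominal rate. Alternatives covered the arrays, blocks, filter, floor, scaling and variance model. Precision is limited by 3 arrays a group.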

Additional observations from a re-analysis of the deposited data

How the results depend on the processing

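The 101 calls (51 higher, 50 lower) kept their direction in all 20 alternative settings, but their number did not hold. Since the days did not overlap in any of the 101, most of these settings could not turn a sign. Kept direction is thus no support. All 15 arrays gave 590 (297 and 293), the 14 arrays without OBX day 5 replicate 1, an alternative chosen after seeing the data, 828 (412 and 416), and array weights 847 (418 and 429). No detection filter gave 29 (11 and 18), signals raised to 200 gave 56 (25 and 31), and no variance trend 59 (28 and 31). Setting each group against its own control gave 113 (41 and 72), of which 64 were among the 101. Of 60 named probe sets with a call 24 lost it there, among them all 5 called genes of antigen presentation, and for Mmp3, Lcn3 and Birc5 the change was smaller by over 1.5 times. For Mmp3 no control array had a present call, so its change against own controls rests on undetected signals. Scan day as a block and the values within the second scan day gave 0 calls by limma, with 361 and 219 probe sets under an unadjusted p of 0.05. Leaving out 1 array at a time gave 0 to 647 calls, 0 to 308 higher and 0 to 339 lower. It was 0 without OBX day 1 replicate 1, 2 or 3, 647 without OBX day 5 replicate 1, 24 without replicate 2 and 15 without replicate 3. The replicate number as a block gave 2 calls (0 higher and 2 lower), with 1025 probe sets under an unadjusted p of 0.05. Deviations of same-numbered arrays correlated at 0.216, 0.17 and 0.0797, and replicate 3 of day 1 correlated best with replicate 2 of day 5 (0.0842), so the numbers were not taken to pair the arrays.

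Among named genes, signs turned only for some that did not pass. With scan day as a block or within the second scan day Mt3 was at 0.01831 and Cd68 at 0.05576. Against own controls the dimmest of 3 probe sets of Cxcl12 was at 0.2154. With 1 array left out, Mt3 ranged from −0.4084 to 0.02615, Cd68 from −0.2424 to 0.1194, Fos from −0.7094 to 0.1574, the dimmer probe set of Mki67 from −0.3309 to 0.04148 and that of Stom from −0.6692 to 0.1129. Fewer samples enter the fits with an array left out, and for the other settings the cause was not tested. Dim probe sets set a further limit, since a signal not called present bounds a fold change only.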
